A study of Mus musculus with 24 samples.

Results

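The subject is the difference between Foxa1/Foxa2 double-knockout (dKO) and wild-type (WT) mouse liver that recurred in 3 settings, namely females without treatment and treated animals of each sex. All 24 arrays of the study enter it, 4 in each of 6 groups. For each of 19285 genes the dKO minus WT difference was taken in each setting, and the mean of the 3 differences, with every group weighted equally, was tested. A gene is called even here when 4 conditions hold. Its mean difference passed an adjusted p of 0.05, its signal was well above background on at least 1 array of each of the 6 groups, its 3 differences had the same sign, and the smallest of them was at least 0.5 of the largest. Of the 19285 genes, 1290 (6.69%) were even, 635 higher and 655 lower in dKO. All levels and differences below are on the log2 scale, with each array's 75th percentile set to 0, so that a difference of 1 is a doubling and levels of different genes cannot be ranked against each other.

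Foxa1 and Foxa2 are forkhead transcription factors that bind liver enhancers and open chromatin for other regulators, first in the embryonic foregut and later in hepatocytes. Hepatocytes and bile duct cells arise from a common progenitor, and in adult liver Foxa1 and Foxa2 are known to act on bile acid handling, lipid metabolism and the restraint of bile duct growth. Foxa3 is a further member of the family and is also made by hepatocytes.

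The groups were dKO and WT females that received no carcinogen, dKO and WT females that were treated, and dKO and WT males that were treated. Treatment was diethylnitrosamine (DEN, a liver carcinogen) at 20 mg/kg on day 14 or 15 of life, followed by 8 injections of TCPOBOP (an agonist of the nuclear receptor CAR that promotes liver tumours) at 3 mg/kg, 2 weeks apart. The tissue label reads liver tumour for all 6 groups, the untreated ones included, and the extraction protocol names sorted cells as well as liver without saying which arrays they are. Strain, the age at collection, the deleted part of each gene, the driver of the deletion and whether an array holds 1 animal or a pool are stated nowhere in the labels or files used. The p-values therefore measure the spread between arrays.

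Some features of the arrays touch every count below. In each group the fourth array lay between the other 3 for 71.6 to 85.4% of 13534 genes that were above background on all 24 arrays, whereas for replicates 1 to 3 this share was 22.4 to 62.8%. The SD of its difference from the mean of the other 3 was 0.15 to 0.21, against 0.25 to 0.77 for replicates 1 to 3. The labels do not say whether the fourth arrays share RNA with the others. If they do, each group holds fewer than 4 independent samples and the p-values of the 24-array fit are too small, so counts are given both ways. Array position on the slide moved with genotype. The dKO arrays were at position 2 (1 array), 3 (5 arrays) or 4 (6 arrays), and the WT arrays at position 1 (6 arrays), 2 (5 arrays) or 3 (1 array), and with position in the model the error of the mean difference was 2.6 times as large. Within a position, dKO and WT can be compared only in untreated females, at positions 2 and 3. Lastly, treated dKO females were the least alike, with correlations between arrays of 0.934 to 0.985, against 0.971 to 0.990 in the other 5 groups. The share of spots well above background was 50.4 to 68.4% over the 24 arrays. Its mean in dKO and WT was 67.22% and 60.58% in treated females, 62.13% and 59.96% in treated males, and 59.52% and 59.45% in untreated females.

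Foxa1 and Foxa2 themselves fell in all 3 settings. Foxa2 read -1.93, -7.06, -3.76 and -3.14 on the untreated female dKO arrays, against 4.49, 4.92, 3.93 and 4.45 on the untreated female WT arrays. In treated females Foxa2 read -5.15, -7.12, -5.44 and -6.22 on the treated female dKO arrays, against 4.09, 4.09, 3.88 and 3.97 on the treated female WT arrays. In treated males it read -2.83, -4.84, -5.78 and -3.63 on the treated male dKO arrays, against 3.78, 3.71, 3.55 and 3.72 on the treated male WT arrays. Every dKO array was below every WT array, and 7 of the 12 dKO arrays still had a Foxa2 signal above background. The mean difference of Foxa2 was -8.79 ± 0.43 (SE, adjusted p = 1.49e-11), with -8.42 in untreated females, and -9.99 and -7.96 in treated females and males. Foxa1 was above background on all 12 WT arrays (levels of -3.36 to -2.11) and on 0 of the 12 dKO arrays. Its difference is therefore a bound, with Foxa1 at least 6.36-fold lower in dKO in untreated females, and at least 7.14-fold and 5.99-fold lower in treated females and males. Such a bound sets the mean of the bright group against, per array, the higher of the lowest signal among probes well above background and the probe's own signal. Foxa3 was 0.58 to 2.38 (median 1.86) on the 12 dKO arrays, against 0.35 to 1.59 (median 1.12) on the 12 WT arrays, and its mean difference was 0.77 ± 0.16 (SE, adjusted p = 0.00075). With position in the model Foxa3 was 0.21 (adjusted p = 0.909).

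In the mean over the 3 settings 6841 genes (35.5%) passed, 3371 higher and 3470 lower in dKO. The median difference over all genes was -0.03. Background correction with normexp shifted that median to -0.13 and turned the split of called genes to 1954 higher and 4114 lower, and median centring of each array shifted it to -0.11 with 2545 higher and 4959 lower, so the balance of higher and lower genes depends on the scaling. Without the fourth arrays 3427 genes (17.8%) passed, 3394 of them among the 6841, and 859 (4.45%) were even. All 1290 even genes kept their sign without the fourth arrays, on arrays that had also served to choose them, and 857 were still called. With position in the model 217 genes (1.13%) passed, 86 (0.446%) were even, and 1251 of the 1290 even genes kept their sign.

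Even genes were typically changed by less than 2-fold. The median mean difference was 0.83 for the 635 higher genes and -0.40 for the 655 lower ones, and 201 even genes (149 higher and 52 lower) differed by at least 2-fold in every setting. Evenness aside, 455 genes (2.36%) were called and at least 2-fold in every setting, 350 of them higher, and 83 were at least 4-fold, 57 of them higher. Replicates 1 to 3 alone gave 442 genes (2.29%) by the 2-fold rule, and the model with position gave 110 (0.570%). The single settings called 1880 genes in untreated females (9.75%), 5736 in treated females (29.7%) and, for treated males, 4875 (25.3%). In all, 670 genes (3.47%) were called with the same sign in all 3, which is 35.6% of the untreated female calls, 11.7% of the treated female calls and 13.7% of the treated male calls. With replicates 1 to 3 alone 123 genes (0.638%) met that rule, and with position in the model 8 (0.0415%) did. In 768 genes (3.98%) the 4 dKO and 4 WT arrays did not overlap in any setting, in the same direction, and 364 of these were even.

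**Figure D1:**
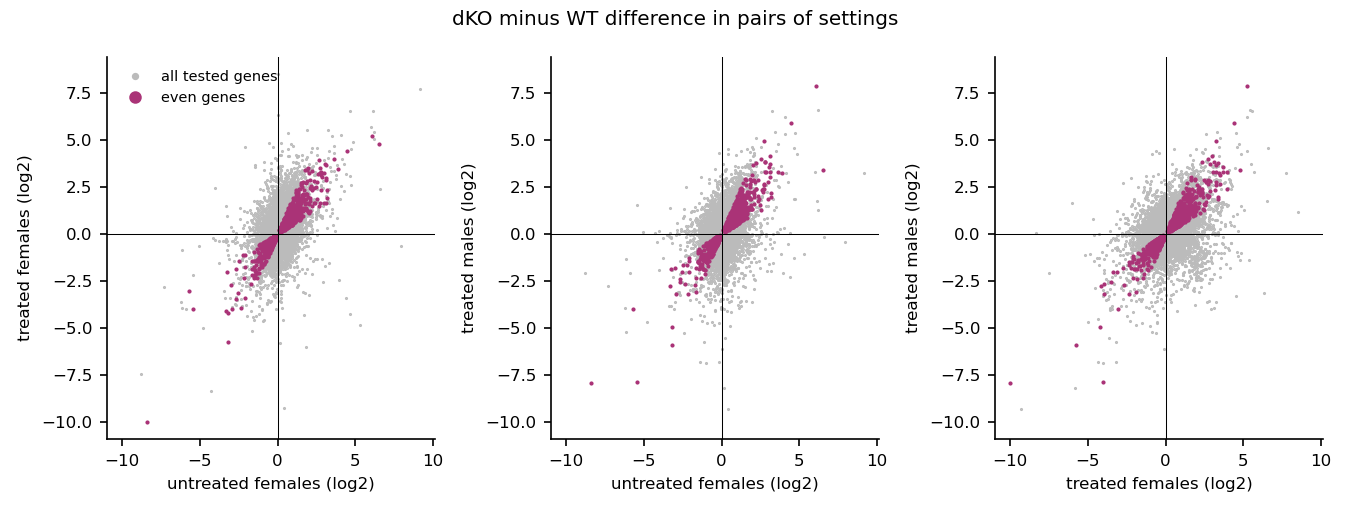
Each point is a gene at its dKO minus WT difference (log2) in 1 setting on the horizontal axis and another on the vertical axis, with all 19285 tested genes in grey and the 1290 even genes in purple. The even genes form a double wedge around the diagonal because the rule allows no more than a 2-fold ratio of the differences.

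The 3 comparisons share no array. Across all genes the differences correlated at Pearson's r of 0.48 between untreated and treated females, 0.41 between untreated females and treated males and 0.43 between treated females and treated males, a description in which genes are not independent and genotype moves with array position throughout. The F test for unequal differences passed 3421 genes (17.7%) with 24 arrays, 46 (0.239%) without the fourth arrays and 409 (2.12%) with position in the model, so its calls depend on those arrays. The limit of 0.5 on the ratio cuts through a continuum. Mapkapk3, a stress-activated kinase, lay just inside with 1.17, 2.33 and 2.22 in untreated females, treated females and males, whereas Zfp462, a zinc finger gene, lay just outside with 1.24, 2.17 and 2.49.

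The leading genes described next are the 12 highest and 12 lowest among the 321 even genes that had a RefSeq name, arrays of dKO and WT that did not overlap in any setting, and a brighter genotype whose 4 arrays all had signal well above background in each setting. Even probes with no such name are left out. Among genes that fell, Foxa2 was followed by Elovl3, Cyp4a14 and Acot1. Elovl3, a fatty acid elongase, was -7.59 to -2.75 (median -4.80) on the 12 dKO arrays, against -1.47 to 3.44 (median 0.47) on the 12 WT arrays. Its mean difference was -5.78 ± 0.35 (SE, adjusted p = 2.04e-10), and the 3 differences were -5.46 in untreated females, and -4.02 and -7.87 in treated females and males. Elovl3 was above background on 7 of 12 dKO arrays (1 of 4 in untreated females and 2 of 4 in treated males), so the size of these differences is uncertain, and without the fourth arrays it was called but not even (-3.97 in treated females and -8.02 in treated males). Cyp4a14, a fatty acid omega-hydroxylase, was -2.19 to 4.92 (median -0.89) on the 12 dKO arrays, against 2.29 to 8.44 (median 5.44) on the 12 WT arrays, and its mean difference was -4.95 ± 0.33 (SE, adjusted p = 6.97e-10). Its genotypes overlapped across settings since the untreated arrays were the highest of each genotype, while within each setting they did not overlap. Acot1, a cytosolic acyl-CoA thioesterase, read 0.06, -0.68, -0.16 and -0.24 on the untreated female dKO arrays, against 5.66, 5.28, 5.34 and 5.39 on the untreated female WT arrays. In treated females Acot1 read 0.04, 0.87, -0.76 and 0.23 on the treated female dKO arrays, against 3.56, 3.07, 2.63 and 3.27 on the treated female WT arrays. In treated males it read -0.22, -0.74, -0.40 and -0.48 on the treated male dKO arrays, against 3.31, 3.08, 4.15 and 3.53 on the treated male WT arrays. The dKO level of Acot1 stayed within -0.76 to 0.87 in all 3 settings, while the WT level was higher without treatment. The mean difference of Acot1 was -4.23 ± 0.16 (SE, adjusted p = 2.6e-13), with -5.67 in untreated females, and -3.03 and -3.98 in treated females and males.

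F11 encodes coagulation factor XI, which hepatocytes secrete. In untreated females F11 read 2.03, 2.34, 2.02 and 2.03 on the untreated female dKO arrays, against 4.71, 4.74, 4.90 and 4.74 on the untreated female WT arrays. In treated females it read 0.54, -0.35, 1.92 and 0.76 on the treated female dKO arrays, against 3.78, 4.43, 4.44 and 4.15 on the treated female WT arrays. In treated males it read 1.22, 1.74, 0.99 and 1.40 on the treated male dKO arrays, against 3.74, 4.19, 3.72 and 3.84 on the treated male WT arrays. The genotypes did not overlap over all 24 arrays, and the differences were -2.67 in untreated females, and -3.48 and -2.54 in treated females and males, with a mean of -2.89 ± 0.17 (SE, adjusted p = 1.69e-10). With position in the model the mean difference of F11 was -2.98 (adjusted p = 0.0057), and within untreated females it was -2.76 at position 2 and -2.60 at position 3. Each of the within-position values rests on 1 array of one genotype, which at position 3 is the fourth WT array. Of 35 measured complement and coagulation genes F11 was the 1 even gene, while 14 fell and 2 rose in the mean, against 6.69% even, 18.0% lower and 17.5% higher among all genes. Position in the model left 2 of the 35 lower.

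Cyp2g1, a cytochrome P450 best known from olfactory mucosa, was -5.04 to -0.42 (median -1.90) on the 12 dKO arrays, against 0.35 to 2.32 (median 1.61) on the 12 WT arrays, a mean difference of -3.40 ± 0.35 (SE, adjusted p = 2.55e-07). Rdh9, a retinol dehydrogenase, was -0.50 to 1.31 (median 0.23) on the 12 dKO arrays, against 1.60 to 3.46 (median 3.05) on the 12 WT arrays, a mean difference of -2.57 ± 0.17 (SE, adjusted p = 6.33e-10). Aox3, the main aldehyde oxidase of mouse liver, was -2.03 to 1.78 (median 1.24) on the 12 dKO arrays, against 2.82 to 4.20 (median 3.48) on the 12 WT arrays, a mean difference of -2.51 ± 0.28 (SE, adjusted p = 7.72e-07). None of these 3 genes had overlapping genotypes on the 24 arrays. With position in the model Rdh9 remained called (-3.14, adjusted p = 0.00243), whereas Cyp2g1 (-3.54, adjusted p = 0.0978) and Aox3 (-2.42, adjusted p = 0.177) did not. The other lowest of these genes were Gpx6 (a glutathione peroxidase, -2.57), Slc17a8 (a vesicular glutamate transporter, -2.51), 1810064F22Rik (-2.39) and Gask1a (-2.29). Gpx6 was dim, above background on 3 of 12 dKO arrays and 12 of 12 WT arrays, so the size of its difference is uncertain.

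Cdh16, Krt7 and Scd2 led the genes that rose. Cdh16 encodes a cadherin of kidney tubules. In untreated females Cdh16 read 0.40, 0.03, 0.56 and 0.37 on the untreated female dKO arrays, against -6.02, -5.54, -5.15 and -6.27 on the untreated female WT arrays. In treated females it read 1.86, -2.08, 1.52 and 0.91 on the treated female dKO arrays, against -4.78, -5.55, -4.38 and -3.99 on the treated female WT arrays. In treated males it read 2.78, 1.02, 2.33 and 2.31 on the treated male dKO arrays, against -4.79, -6.42, -6.66 and -5.09 on the treated male WT arrays. The lowest dKO array, a treated female, was still above every WT array, where Cdh16 was above background on 6 of 12. Its mean difference was 6.39 ± 0.37 (SE, adjusted p = 1.11e-10), with 6.09 in untreated females, and 5.23 and 7.85 in treated females and males, and without the fourth arrays Cdh16 was called but not even.

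Krt7, a keratin of bile duct cells, read 3.34, 2.97, 3.52 and 3.23 on the untreated female dKO arrays, against -0.73, -1.69, -1.01 and -1.28 on the untreated female WT arrays. In treated females Krt7 read 4.50, 1.26, 4.11 and 3.60 on the treated female dKO arrays, against -1.56, -1.18, -0.47 and -0.97 on the treated female WT arrays. In treated males it read 4.57, 4.27, 4.59 and 4.65 on the treated male dKO arrays, against -1.07, -1.23, -1.83 and -1.35 on the treated male WT arrays. WT levels of Krt7 were alike in the 3 settings, and the second treated dKO female was lower than the other dKO arrays, as it was for Cdh16. The differences of Krt7 were 4.44 in untreated females, and 4.41 and 5.89 in treated females and males, with a mean of 4.91 ± 0.26 (SE, adjusted p = 3.51e-11).

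Scd2, a stearoyl-CoA desaturase that adult liver normally makes little of, was 4.02 to 6.97 (median 5.36) on the 12 dKO arrays, against -0.61 to 1.43 (median 0.38) on the 12 WT arrays. Its differences were 6.54 in untreated females, and 4.78 and 3.41 in treated females and males, the widest spread among the leading genes that rose, with a mean of 4.91 ± 0.20 (SE, adjusted p = 9.07e-13). The F test of their inequality gave adjusted p = 0.00138 with 24 arrays and 0.108 without the fourth arrays. Cd24a, a surface glycoprotein of progenitor and bile duct cells, was more alike between settings, with 3.12 in untreated females, and 3.69 and 3.28 in treated females and males and a mean of 3.36 ± 0.24 (SE, adjusted p = 2.07e-09). Cd24a levels were -0.20 to 3.42 (median 1.46) on the 12 dKO arrays, against -3.10 to -0.38 (median -1.99) on the 12 WT arrays. The genotypes did not overlap for either gene.

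**Figure D2:**
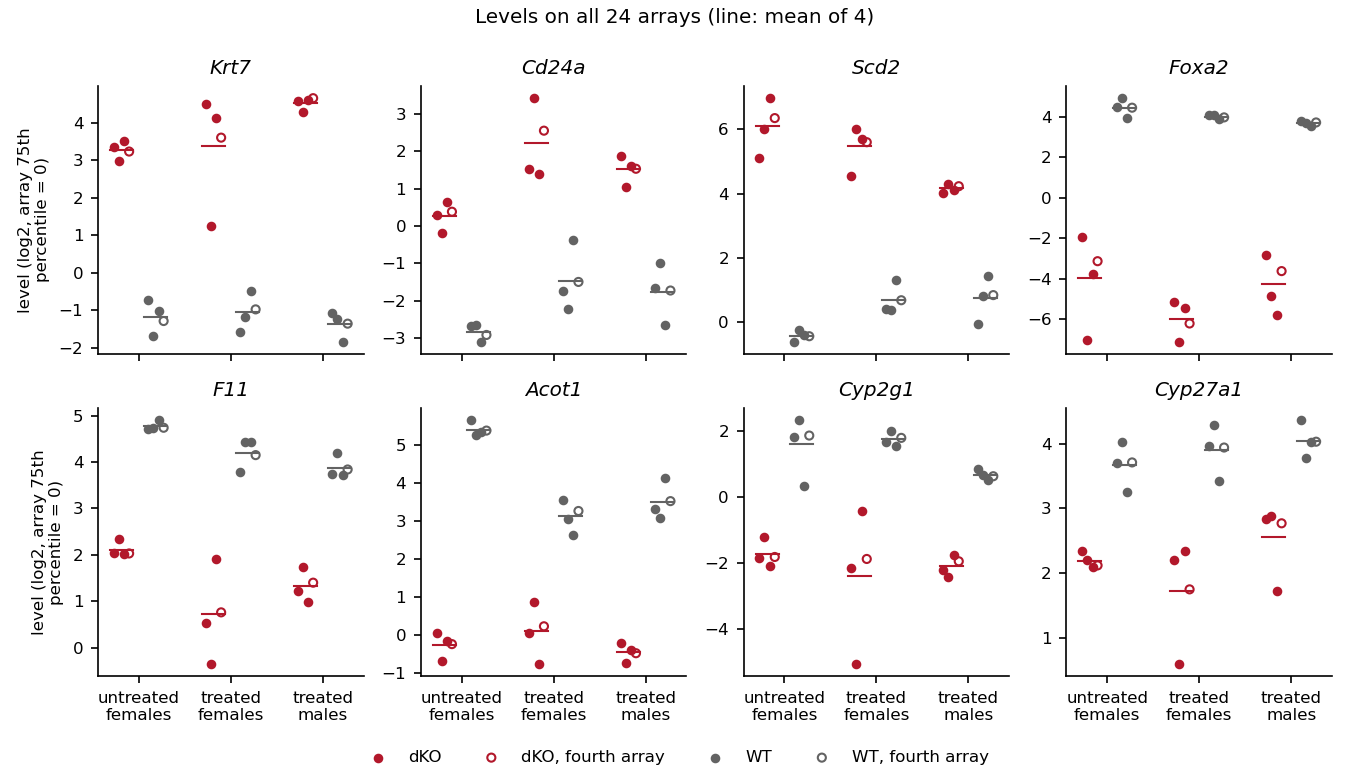
Levels (log2, each array's 75th percentile set to 0) of 8 genes on all 24 arrays, with dKO in red left of WT in grey in each setting, lines at the mean of 4 arrays and open circles for the fourth array of each group. In every setting the dKO arrays of Krt7, Cd24a and Scd2 lie above, and those of Foxa2, F11, Acot1, Cyp2g1 and Cyp27a1 below, all 4 WT arrays.

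The remaining 8 of the 12 highest genes had mean differences of 3.07 to 3.63. They include Tesc (a calcium-binding protein, 3.41 ± 0.24 SE, adjusted p = 1.49e-09), Arhgef28 (a guanine nucleotide exchange factor, 3.26 ± 0.19 SE, adjusted p = 9.59e-11) and Hebp2 (a haem-binding protein, 3.12 ± 0.26 SE, adjusted p = 1.3e-08), with Tmem54, Spns3, Wfdc18, Prr15l and Lrrc75b. Hebp2 was among the most even, with 2.81 in untreated females, and 3.27 and 3.29 in treated females and males. By the same measure, the range of the 3 differences over their mean, the most even genes with a mean of at least 2 were Crygn (a crystallin, 2.22 in untreated females, and 2.33 and 2.42 in treated females and males) and Anxa13 (an annexin of epithelia, 3.01 in untreated females, and 3.23 and 2.78 in treated females and males). Rasal1, a Ras GTPase-activating protein, had 2.83 in untreated females, and 3.04 and 3.32 in treated females and males. Epdr1, a secreted ependymin-like protein, had 2.37 in untreated females, and 2.44 and 2.85 in treated females and males. Rasal1 was above background on 6 of 12 WT arrays (1 of 4 in untreated females and 2 of 4 in treated males). Tmem54 was above it on 7 of 12 WT arrays (1 of 4 in untreated females), Lrrc75b on 6 of 12 and Spns3 on 8 of 12. How alike the differences of these genes are is therefore uncertain. Of the 8 most even genes 2 remained called and even with position in the model, and Crygn (adjusted p = 0.216), Anxa13 (adjusted p = 0.188) and Rasal1 (adjusted p = 0.325) did not pass. For Rasal1 and Spns3 some WT arrays of one setting reached dKO levels of another, so their genotypes overlapped across the 24 arrays.

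**Figure D3:**
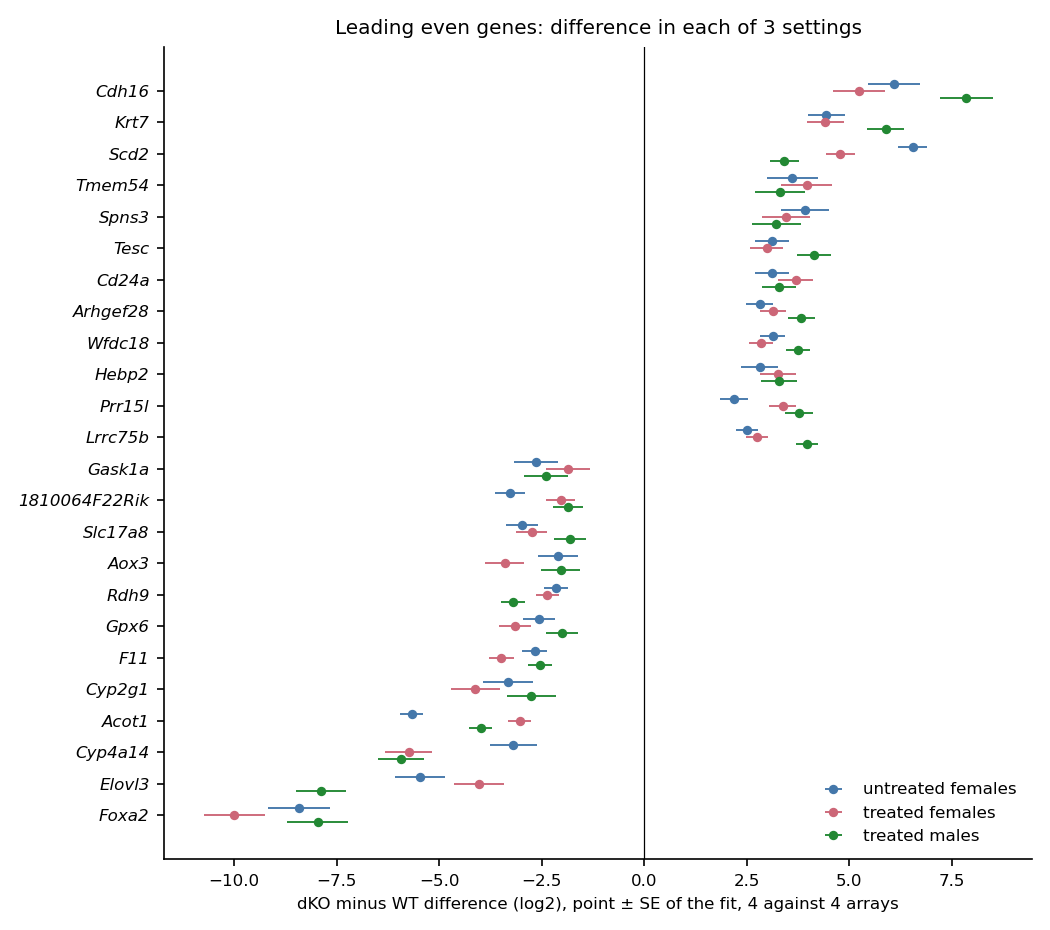
The dKO minus WT difference (log2) of the 12 highest and 12 lowest leading genes in each setting, as points with the standard error of the fit (4 against 4 arrays each). As the rule for even genes requires, the 3 points of a gene lie on one side of 0, from Foxa2 with a mean of -8.79 to Cdh16 with a mean of 6.39.

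All 24 of these leading genes differed in their mean direction in each of the 7 pairs of a dKO and a WT array of the same setting on the same slide, which lay on 6 slides. Their choice fixed this, since their dKO and WT arrays did not overlap in any setting. The dKO array had the later position in each pair, so the pairs do not separate genotype from position. All 24 remained called without the fourth arrays and with slide as a block, and 22 were even in each of these fits. With position in the model 17 of 24 remained called, 15 were even and 24 kept their sign. Scd2 was then 6.21 in untreated females, and 3.90 and 2.18 in treated females and males. The values at positions 2 and 3 in untreated females had the sign of the mean for all 24, which the choice of non-overlapping arrays also fixed. Each of these values rests on 1 array of one genotype, which at position 3 is the fourth WT array. Over all even genes, 749 of 1290 had the direction of their mean in all 7 slide pairs, 1197 in at least 6, and 1252 at both positions in untreated females. Even genes were chosen on these same arrays for one sign in each setting, which favours such agreement, so these counts are a description only. Of the 7 pairs 2 include an array numbered 4.

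**Figure D4:**
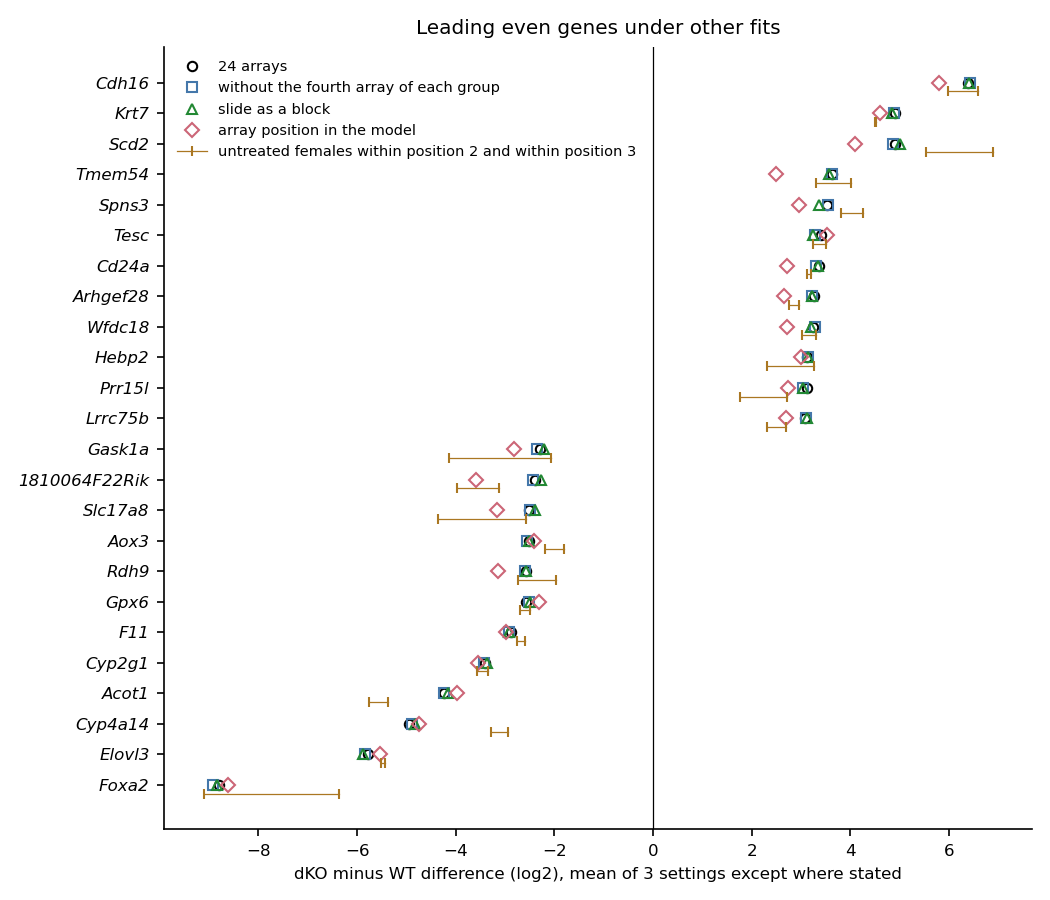
The mean dKO minus WT difference (log2) of the 24 leading even genes in the 24-array fit, without the fourth array of each group, with slide as a block and with array position in the model, with brown bars joining the untreated female differences at positions 2 and 3. No symbol of a gene crosses 0, which the choice of genes fixed except in the slide and position fits. With position in the model the lowest value among the genes that rose is 2.49 for Tmem54, against 3.63 in the 24-array fit.

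Even genes in bile acid synthesis all fell. Of 16 measured genes of this pathway 9 fell and 1 rose in the mean, and 4 were even, where 18.0% of all genes fell, 17.5% rose and 6.69% were even. The median was -0.49 for the list and -0.03 for all genes. Cyp27a1, which starts the alternative route of bile acid synthesis, was 0.60 to 2.89 (median 2.21) on the 12 dKO arrays, against 3.26 to 4.36 (median 3.95) on the 12 WT arrays, with -1.48 in untreated females, and -2.18 and -1.49 in treated females and males, with a mean of -1.72 ± 0.18 (SE, adjusted p = 3.12e-07). Cyp7b1, the next hydroxylase of that route, had -1.54 in untreated females, and -1.76 and -1.01 in treated females and males, with a mean of -1.44 ± 0.15 (SE, adjusted p = 2.6e-07). Cyp8b1, which makes cholic acid, had -1.62 in untreated females, and -1.45 and -2.34 in treated females and males, with a mean of -1.80 ± 0.49 (SE, adjusted p = 0.00712), but its arrays overlapped and it was not called without the fourth arrays (adjusted p = 0.0744). Hsd17b4, of peroxisomal side-chain shortening, was the other even gene at -0.55. Cyp7a1, the rate-limiting enzyme of the classical route, had a mean of -0.30 that did not pass. The gene that rose, Ch25h, encodes a cholesterol hydroxylase that is not specific to hepatocytes, and it was not called without the fourth arrays (adjusted p = 0.11). Without those arrays 6 of the 16 genes fell and 3 were even. Cyp27a1 (adjusted p = 0.108), Cyp7b1 (adjusted p = 0.15) and the rest of the 16 did not pass with position in the model.

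Genes that the fatty acid receptor PPARA is known to induce fell in 20 of 29 cases and rose in 1, and 6 were even, with a median of -0.44, where 18.0% of all genes fell and 6.69% were even. Next to Acot1 and Cyp4a14 the even members were small in effect, namely Creb3l3 (a liver transcription factor, -0.54), Acaa1b (a peroxisomal thiolase, -0.49), Cpt2 (mitochondrial import of fatty acids, -0.44) and Acadm (an acyl-CoA dehydrogenase, -0.41). Cyp4a10 fell in each setting but unevenly, by 1.16 in untreated females, and 2.51 and 3.84 in treated females and males on the log2 scale. The member that rose was Cidec, a lipid droplet protein, at 1.45. With replicates 1 to 3 alone 15 of the 29 fell and 0 rose, and with position in the model 4 fell and 2 were even.

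Pericentral genes, which Wnt signalling sustains in the hepatocytes around the central vein, fell in 15 of 20 cases and rose in 0, with a median of -0.95, where 18.0% of all genes fell. Of these, 5 were even. Gulo, the last enzyme of vitamin C synthesis in mice, was 3.14 to 6.35 (median 5.78) on the 12 dKO arrays, against 6.42 to 7.54 (median 7.03) on the 12 WT arrays, with a mean difference of -1.41 ± 0.21 (SE, adjusted p = 3.4e-05). Tbx3, a transcription factor, was 0.00 to 3.13 (median 2.15) on the 12 dKO arrays, against 2.69 to 4.37 (median 3.43) on the 12 WT arrays, with a mean difference of -1.28 ± 0.22 (SE, adjusted p = 0.000107). Ahr, the dioxin receptor, had -0.86 in untreated females, and -0.75 and -0.79 in treated females and males, and Axin2, a feedback inhibitor of Wnt signalling, had -0.80 in untreated females, and -1.07 and -1.44 in treated females and males. Cyp27a1 was the other even member. Gulo, Ahr and Axin2 are named although they fell outside the naming rule, having been picked after their values were seen, and Axin2 was not called without the fourth arrays (adjusted p = 0.0566). Slc1a2, a glutamate transporter with the lowest mean of the list (-2.75), was not even, with -0.85 in untreated females, and -4.56 and -2.86 in treated females and males. Without the fourth arrays 12 of the 20 fell and 3 were even, and with position in the model 1 fell.

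General hepatocyte genes and genes long known as Foxa targets held no even gene with 24 arrays (6.69% of all genes were even). Of 17 measured hepatocyte markers 5 fell, 12 did not pass and 0 rose (18.0% of all genes fell and 17.5% rose), with a median of -0.18. Apoa1, the main protein of high-density lipoprotein, was the lowest at -1.16 ± 0.21 (SE, adjusted p = 0.000195), while Alb (-0.16), Ttr (-0.09) and Hnf4a (-0.08) did not pass. By setting the list median was -0.12 in untreated females, and -0.47 and 0.09 in treated females and males. All 17 were above background on all 24 arrays, and their summed signal (in units of each array's 75th percentile) was 2756 to 5193 in dKO and 4179 to 5848 in WT. The median sum in dKO and WT was 4562 and 5098 in untreated females, and 4000 and 4870 in treated females. In treated males it was 4825 and 4629, thus higher in dKO. Of 17 measured genes whose promoters are classical Foxa targets 5 fell, 0 rose and 0 were even. Without the fourth arrays 4 hepatocyte markers fell and 2 of them were even, and 3 of the Foxa targets fell and 1 was even. No gene of either list passed with position in the model. Mbl2, a mannose-binding lectin of complement, differed more with treatment, with -0.46 in untreated females, and -3.60 and -3.30 in treated females and males (F test adjusted p = 5.52e-08, and 0.000572 without the fourth arrays).

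Markers of bile duct, stellate and macrophage cells rose in dKO, and in RNA of mixed cells more cells of a type and more RNA per cell cannot be told apart. Of 24 bile duct markers 18 rose and 1 fell (17.5% and 18.0% of all genes), with a median of 1.75, and 7 were even, all higher. Besides Krt7 and Cd24a these were Cldn7 (a claudin, 2.05 in untreated females, and 3.26 and 3.68 in treated females and males), Wfdc2 (a secreted epithelial protein, 2.76 in untreated females, and 3.52 and 2.65 in treated females and males), Krt19 (1.79), Pkhd1 (a protein of cilia, 1.59) and Anxa3 (1.21). The summed signal of the list was 217 to 562 in dKO and 143 to 363 in WT, ranges that overlap, and 3 markers (0 in dKO) were at background on all 12 WT arrays. The median sum in dKO and WT was 244.0 and 176.6 in untreated females, and 492.9 and 237.6 in treated females. In treated males it was 341.3 and 324.0, with overlapping ranges. With bounds in place of differences for the 4 markers that had a bound, the list median was 1.40. Prom1, Krt8, Muc1 and Elf3 were among the 5 that did not pass, and Aqp1 fell by 0.40. With replicates 1 to 3 alone 17 markers rose and 7 were even, and with position in the model 4 rose and were even. The part of bile duct cells in the even genes was not tested.

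Of 28 stellate cell and fibroblast markers 22 rose and 0 fell, with a median of 0.95 and 6 even, where 17.5% of all genes rose and 6.69% were even. Loxl1, which cross-links elastin, had 1.57 in untreated females, and 2.73 and 2.85 in treated females and males, and Mgp, a matrix protein, had 1.51 in untreated females, and 1.65 and 2.94 in treated females and males. Tgfb3, a growth factor counted with the bile duct signals, had 1.65 in untreated females, and 2.11 and 2.21 in treated females and males. The other even stellate markers were Pdgfrb (0.99), Des (0.97), Thy1 (0.82) and Col14a1 (0.53). Col1a1, the main fibrillar collagen, was not even, with 1.22 in untreated females, and 3.36 and 1.13 in treated females and males. Summed stellate signal was 159 to 292 in dKO and 95.2 to 155 in WT, and 19 of 28 markers rose without the fourth arrays. Of the 28, 3 rose and 2 were even with position in the model.

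Macrophage markers rose in 13 of 20 cases and fell in 0, with a median of 0.73 and 6 even, where 17.5% of all genes rose and 6.69% were even. The 3 chains of complement C1q were all even. C1qa, picked after its values were seen like C1qb and C1qc, read 2.56, 2.20, 2.23 and 2.31 on the untreated female dKO arrays, against 0.71, 1.79, 1.57 and 1.38 on the untreated female WT arrays. In treated females C1qa read 3.75, 4.07, 2.26 and 3.55 on the treated female dKO arrays, against 2.32, 2.53, 2.30 and 2.35 on the treated female WT arrays. In treated males it read 2.79, 2.39, 2.71 and 2.72 on the treated male dKO arrays, against 2.03, 2.70, 0.65 and 1.94 on the treated male WT arrays. The genotypes overlapped in both treated settings, and the differences were 0.96 in untreated females, and 1.03 and 0.82 in treated females and males, with a mean of 0.94 ± 0.21 (SE, adjusted p = 0.00131). Those of C1qb were 0.90 in untreated females, and 1.04 and 0.71 in treated females and males, and those of C1qc 0.87 in untreated females, and 0.70 and 0.53 in treated females and males. Cd74, a chaperone of antigen presentation, had 1.24 in untreated females, and 1.33 and 1.23 in treated females and males. Trem2, a lipid-sensing receptor of macrophages, had 1.90 in untreated females, and 3.39 and 1.86 in treated females and males. Ccr2, a monocyte chemokine receptor, had a mean of 1.13. Of the 20, 0 passed with position in the model. Without the fourth arrays 5 of the 20 rose, and C1qb (adjusted p = 0.051) and C1qc (adjusted p = 0.0635) were not called.

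Neutrophil markers rose in 5 of 11 cases (17.5% of all genes rose) and fell in 0, and 3 were even. With replicates 1 to 3 alone 1 rose, and with position in the model 0 did. Summed neutrophil signal did not rise in every setting. Its median in dKO and WT was 4.27 and 1.38 in untreated females, 11.12 and 15.6 in treated females, and 10.36 and 21.31 in treated males. It was thus lower in dKO in both treated settings, and the ranges of dKO and WT overlapped in each setting. S100a9, a calcium-binding protein of neutrophils, had 1.75 in untreated females, and 1.58 and 1.99 in treated females and males, Ltf 1.29 in untreated females, and 2.21 and 2.09 in treated females and males, and Retnlg 1.46 in untreated females, and 1.08 and 1.44 in treated females and males, all even. Their arrays overlapped, Ltf was above background on 7 and Retnlg on 6 of 12 WT arrays, and Ltf and Retnlg were not called without the fourth arrays (both adjusted p = 0.0941). Of 20 endothelial markers 2 rose, 2 fell and 16 did not pass. Both shares were below the 17.5% and 18.0% of all genes that rose and fell. In the acute phase list 6 of 21 rose and 4 fell, where 17.5% of all genes rose and 18.0% fell. Of the 21, 3 were even, all higher, where 3.29% of all genes were even and higher. With replicates 1 to 3 alone 2 rose, 2 fell and 1 was even, and with position in the model 0 passed. Saa1 and Saa2, serum amyloid proteins of the inflamed liver, had mean differences of 1.37 and 1.47 with overlapping arrays, and neither was called without the fourth arrays (adjusted p = 0.0741 and 0.0554).

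**Figure D5:**
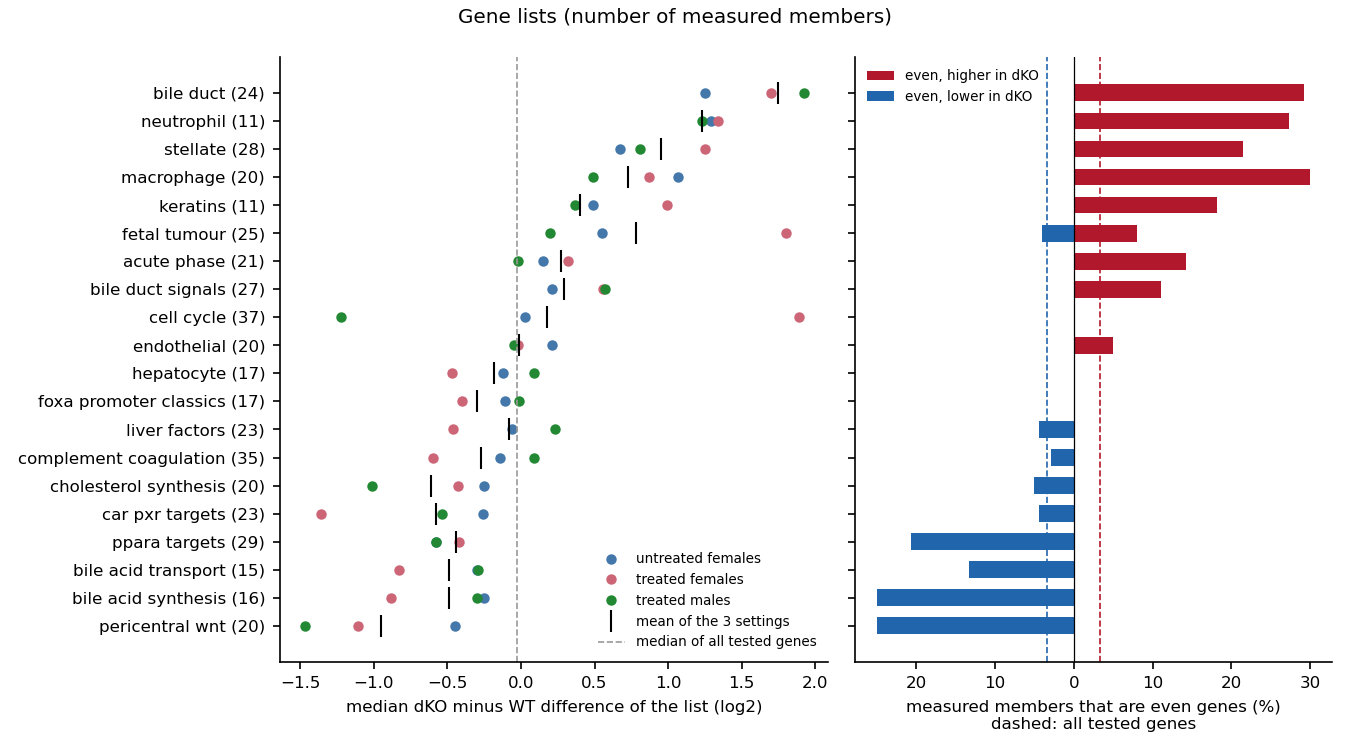
Left, the median dKO minus WT difference (log2) of 20 gene lists in each setting and in the mean, with the median of all tested genes dashed. Right, the share of measured members that were even and higher (red) or lower (blue) in dKO, with the shares over all tested genes, 3.29% and 3.40%, dashed. Bile duct, neutrophil, stellate and macrophage lists hold even genes that are all higher, bile acid synthesis, PPARA target and pericentral lists hold even genes that are all lower, and the cell cycle list holds none.

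A further 14 genes were well above background in one genotype only, 12 in dKO and 2 in WT, so that the size of their difference cannot be compared between settings. Those not well above background on any WT array, while well above it on at least 3 of 4 arrays of each dKO group, included Scin, Cldn23, Pla2g5, Dkk2, Wnt10a, Nipal2, Spdef, Itgbl1, Mlph, Nkain1 and 1 probe with no gene name. These genes were chosen on the same values, with 1 genotype at background, so no p-value is given for them. Scin, an actin-severing protein, was -4.18 to 0.07 (median -1.62) on the 12 dKO arrays, against -7.34 to -5.25 (median -6.50) on the 12 WT arrays. It was at least 7.88-fold higher in untreated females, and at least 8.17-fold and 23.4-fold higher in treated females and males. Dkk2, a secreted Wnt inhibitor, was -3.72 to -2.03 (median -2.77) on the 12 dKO arrays, against -8.02 to -6.28 (median -7.45) on the 12 WT arrays, at least 2.65-fold, 5.61-fold and 6.67-fold higher in the same order. Wnt10a, a Wnt ligand, was at least 2.61-fold, 18.5-fold and 45.0-fold higher in that order, with dKO levels of -4.42 to 0.56. Besides Foxa1, the gene off in dKO was Cela2a, a pancreatic elastase also measured here in WT liver, above background on 0 of 12 dKO and 11 of 12 WT arrays and at least 1.61-fold, 3.52-fold and 2.33-fold lower in that order. Of 9 measured kidney tubule genes 6 rose (17.5% of all genes) and 0 fell, and Cdh16 was the even one. With replicates 1 to 3 alone 6 rose and 0 were even, and with position in the model 3 rose. Their summed signal was 3.02 to 8.81 in dKO and 0.468 to 0.872 in WT.

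Esr1, the main oestrogen receptor of liver, had a mean of 0.06 ± 0.14 (SE, adjusted p = 0.781) and 0.53 in untreated females, and -0.28 and -0.08 in treated females and males. Cell cycle genes held no even member among 37, and their median was 0.03 in untreated females, and 1.89 and -1.22 in treated females and males. Over all 45 lists examined, 17 held no even gene.

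In the authors' deposited table, with its signed folds, all 1290 even genes were found. The 3 signed folds had the sign given here for 1261 of them, and for 1025 they also met the 0.5 limit on the log2 scale. In the authors' deposited table Krt7 was 21.1-fold, 23.6-fold and 63.1-fold higher in dKO, in untreated females, treated females and males. For F11 the authors' deposited table gives 5.81-fold, 11.2-fold and 5.75-fold lower in dKO, printed there as -5.81, -11.2 and -5.75.

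Promoters of 5 leading genes and of Cyp8b1, an even gene of bile acid synthesis, are shown because forkhead factors bind short A and T rich sites, and the window from 250 bases before to 50 bases after the start can be searched for them. Sequences are from RefSeq (GRCm38.p6), where 15 of the 24 leading genes had an entry. F11 (chr8:45261982-45262281, minus strand), Acot1 (chr12:84009252-84009551, plus strand) and Aox3 (chr1:58112886-58113185, plus strand) fell, as did Cyp8b1 (chr9:121916256-121916555, minus strand), and Krt7 (chr15:101412153-101412452, plus strand) and Hebp2 (chr10:18546027-18546326, minus strand) rose. They were chosen to show windows with and without a match, after the matches were known. Capitals mark any of 4 forkhead heptamers, written TNTTTNC with the first N being G or A and the last N being A or G, on either strand, and no match in these windows overlaps another.
F11: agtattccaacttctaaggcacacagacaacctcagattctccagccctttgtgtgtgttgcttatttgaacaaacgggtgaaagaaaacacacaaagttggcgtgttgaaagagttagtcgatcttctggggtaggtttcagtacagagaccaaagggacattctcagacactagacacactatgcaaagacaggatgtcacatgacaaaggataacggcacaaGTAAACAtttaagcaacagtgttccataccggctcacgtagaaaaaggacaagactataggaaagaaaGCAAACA
Acot1: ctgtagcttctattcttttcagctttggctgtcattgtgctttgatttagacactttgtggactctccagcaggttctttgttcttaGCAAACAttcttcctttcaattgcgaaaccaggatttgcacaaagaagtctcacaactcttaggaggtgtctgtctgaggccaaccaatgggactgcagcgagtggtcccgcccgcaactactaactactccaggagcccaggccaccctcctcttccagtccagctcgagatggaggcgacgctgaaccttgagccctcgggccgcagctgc
Aox3: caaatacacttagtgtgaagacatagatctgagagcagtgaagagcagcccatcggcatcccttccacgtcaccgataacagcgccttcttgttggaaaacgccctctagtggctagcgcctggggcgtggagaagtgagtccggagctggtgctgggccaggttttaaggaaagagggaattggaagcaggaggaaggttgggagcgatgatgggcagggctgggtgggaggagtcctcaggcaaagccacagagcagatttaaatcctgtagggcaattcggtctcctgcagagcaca
Krt7: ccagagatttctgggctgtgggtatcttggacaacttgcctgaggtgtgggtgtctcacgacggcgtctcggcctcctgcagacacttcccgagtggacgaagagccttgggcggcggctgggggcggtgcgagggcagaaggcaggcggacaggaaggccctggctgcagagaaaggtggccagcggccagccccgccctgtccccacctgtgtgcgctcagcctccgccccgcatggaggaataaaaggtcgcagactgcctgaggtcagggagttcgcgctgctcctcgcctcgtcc
Hebp2: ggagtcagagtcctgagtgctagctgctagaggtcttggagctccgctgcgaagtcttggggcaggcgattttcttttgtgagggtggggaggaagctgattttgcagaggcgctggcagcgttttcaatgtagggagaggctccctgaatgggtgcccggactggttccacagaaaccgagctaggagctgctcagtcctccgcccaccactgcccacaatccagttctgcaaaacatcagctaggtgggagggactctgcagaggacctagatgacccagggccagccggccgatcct
Cyp8b1: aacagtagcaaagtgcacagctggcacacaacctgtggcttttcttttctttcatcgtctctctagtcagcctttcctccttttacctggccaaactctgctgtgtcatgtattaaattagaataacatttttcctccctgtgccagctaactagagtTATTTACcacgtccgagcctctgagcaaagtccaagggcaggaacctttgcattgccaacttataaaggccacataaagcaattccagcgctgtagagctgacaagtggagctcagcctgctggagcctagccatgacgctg
F11 held 2 matches, on the strand opposite to the gene, with first bases 25 bases before and 44 bases after the start. Acot1 held 1 at 163 bases before and Cyp8b1 1 at 92 bases before the start, and the windows of Aox3, Krt7 and Hebp2 held none of these letters. Of the 12068 tested genes with an entry 11.9% held at least 1 heptamer, as did 15.1% of all 27025 genes with an entry. For all even genes the share was 13.3% (58 of 437) among the higher and 11.4% (53 of 466) among the lower ones, near that of tested genes. Among even genes at least 2-fold lower in every setting the share was 33.3% (11 of 33), among those at least 2-fold higher 9.38% (9 of 96), and among the remaining even lower genes 9.70% (42 of 433). These shares are a description of letters in the windows, with no test, and say nothing of binding.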

How the data were processed

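Mouse liver RNA was hybridised to 24 1-colour (Cy3) Agilent arrays, 4 for each group. The deposited scanner files hold spot intensities that Agilent Feature Extraction (10.5.1.1 per the file headers, 9.53 per the submitters' processing notes) had background-corrected. The authors' deposited table holds signed fold values, treated as a score because values lie on both sides of 0. Here the processed intensity was averaged over spots of a probe, without control and outlier spots. Then log2 of that average minus log2 of the array's 75th percentile was taken, and the brightest kept probe stood for each gene. Of 41174 probes 28048 were well above background on at least 4 arrays and kept, giving 19285 genes, with symbols updated through RefSeq where an accession or symbol matched. Group means were fitted with limma 3.58.1 in R 4.3.3, and the mean of 3 dKO minus WT differences and an F test of their inequality were adjusted by Benjamini-Hochberg over all genes. Every adjusted p in the text is from this fit unless another is named. The procedure was tested on simulated data. The genes named are the 12 highest, 12 lowest and 8 most even genes, genes above background in one genotype only, Foxa1, Foxa2, Foxa3 and Esr1, and up to 4 called members per list by size of difference. Other genes named, such as further even or uncalled list members, were chosen after their values were seen, and a few genes of the rule are not reported here. The gene rule, members and lists were chosen with earlier results of these data known. Alternatives covered background, scaling, filters, slide, array position, replicate number and single arrays.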

Additional observations from a re-analysis of the deposited data

Results flagged for a closer look

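The 3 dKO minus WT differences were unequal by limma's F test for 33 of the genes examined in detail, with the adjusted p given after each name. Among even genes these were Scd2 (0.00138), Lrrc75b (0.0216), Elovl3 (0.0126), Cyp4a14 (0.0327), Acot1 (0.000879), Cldn7 (0.0243), Loxl1 (0.0487) and Mgp (0.0112). Among the others they were Wnt10a (0.0147), Itgbl1 (0.033), Cldn23 (0.00414), Krt20 (0.00565), Krt4 (1.88e-05), Krt23 (0.0116), Ggt1 (0.00947), Dnase1 (0.0115), Tinag (0.00202), Mmp2 (0.0082), Col1a1 (0.0213), Slco1a1 (0.00497), Abcc4 (0.00123), Cyp4a31 (0.00116), Cyp4a10 (0.000852), Slc1a2 (0.0112), Slc1a4 (0.000466), Afp (0.000852), Cyp2c70 (0.0148), Gata6 (0.00121), Mbl2 (5.52e-08), C8b (0.0384), C6 (0.00102), Mcm5 (0.00804) and Ccne1 (0.0463). Without the fourth arrays 2 of these 33 genes passed, namely Krt4 (adjusted p = 0.0121) and Mbl2 (adjusted p = 0.000572).

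One array stood apart from the other 3 of its group, by a gap that passed Dixon's test at the 95% level, in 25 of 606 groups tested (4.13%), where chance flags about 1 in 20. The levels (log2, 75th percentile at 0) of those arrays follow. In untreated dKO females the levels were 2.34 for F11 on array 2, -4.26 for Cx3cr1 on array 2 and 3.69 for Nr1i2 on array 2. In untreated WT females the levels were 4.9 for F11 on array 3, -5.47 for Cela2a on array 3, -2.0 for Slco1a1 on array 3 and 7.18 for Gulo on array 2. In treated dKO females the levels were -3.73 for Slc17a8 on array 3, -7.36 for Cela2a on array 1 and 2.77 for Cyp4a10 on array 3. In treated WT females the levels were -2.35 for Tgfb2 on array 3, -6.85 for Dnase1 on array 4, 4.5 for Cyp7b1 on array 2, -1.88 for Cyp4a31 on array 3, 8.97 for Mbl2 on array 2 and 2.86 for Ahr on array 2. In treated dKO males the levels were -2.87 for Pla2g5 on array 2, -3.52 for Nipal2 on array 2, 2.55 for Wfdc2 on array 2, 1.72 for Cyp27a1 on array 3, -3.08 for Ch25h on array 2 and 1.99 for Lcn2 on array 1. In treated WT males the levels were 2.55 for Slc1a2 on array 1, 7.69 for Apoa1 on array 1 and -0.72 for Gata6 on array 1.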

How the results depend on the processing

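The alternatives that leave out the fourth arrays, or treated dKO females 2 and 4, and the count of genes at least 2-fold in every setting, were chosen after seeing the data. Without the fourth arrays 3427 genes were called in the mean, 859 were even, 123 were called in all 3 settings and 46 were unequal by the F test. Array position as a factor gave 217, 86, 8 and 409 for these counts and 110 genes at least 2-fold in every setting, and position as a number gave 272, 99, 16, 1517 and 125. Background correction with normexp gave 263 genes called in all 3 settings, 1584 unequal and 138 at least 2-fold. With no filter on dim probes 2233 were unequal, with a filter on all 24 arrays 163 were at least 2-fold, and with slide as a block 424 were called in all 3 settings. A limit of 2/3 on the smallest over the largest difference gave 501 even genes and a limit of 1/3 gave 2474. Genes well above background in one genotype only numbered 4 when all 12 arrays had to pass and 35 when up to 1 of 12 could pass in the lower genotype. Leaving out 1 array at a time gave 6225 to 7648 called, 1090 to 1477 even, 473 to 825 called in all 3 settings, 412 to 501 at least 2-fold and 2362 to 5509 unequal, the last without treated dKO female 3. Without treated dKO females 2 and 4 the counts were 6313 called and 1435 even. The mean difference changed sign for Cxcr2 with normexp (-0.19, adjusted p = 0.364), for Mcm5 without treated females (-0.069, adjusted p = 0.885) and for Afp without treated males (0.14, adjusted p = 0.813). The cause of these changes was not tested. With replicate number as a block 6598 genes were called, 1269 even, 561 called in all 3 settings, 2912 unequal and 455 at least 2-fold. The numbers do not pair the samples, since 10 of 60 same-numbered pairs correlated over 0.1 (r of -0.35 to 0.34). The number of arrays limits the precision, and dim probes carry bounds only.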
